A study of Mus musculus with 12 samples.

Results

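Nfe2l2, the gene for the transcription factor Nrf2, and 9 genes known as its antioxidant targets were examined in the livers of mice given carbon tetrachloride (CCl4) with or without Pien Tze Huang (PZH). The 10 genes were chosen by name as a pathway, with earlier results of these data known. All 10 were found among the 14188 protein-coding genes measured. Besides Nfe2l2 they were Nqo1, Hmox1, Gclc, Gclm, Gsr, Txnrd1, Srxn1, Osgin1 and Sqstm1. PZH is a herbal medicine of traditional Chinese practice, and CCl4 is a solvent that hepatocytes convert to radicals and that scars the liver when it is given repeatedly.

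Liver RNA of 12 mice was sequenced, from a PZH group and a control group of 6 mice each. The mice were C57BL/6J males aged 6 weeks at the start, although the sample labels write the strain as C57BL/8. Every mouse, controls included, was injected into the peritoneum with 10 µl/g of a CCl4 and corn oil mixture, 2 times per week, and was killed in week 8. PZH mice were dosed with 0.25 mg/g PZH into the stomach each day, and control mice with double distilled water by the same route. Livers of mice without CCl4 were not analysed here, so each difference is between injured livers with and without PZH. Expression is given as FPKM, a count of sequenced fragments scaled by transcript length and by library size, and the FPKM of a gene is the sum over its protein-coding transcripts. Differences are on the log2(FPKM + 1) scale, PZH minus control, and come from a limma fit over all genes with Benjamini-Hochberg adjustment. A gene passed when its adjusted p was under 0.05.

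Nrf2 is held at a low level in unstressed cells because the adaptor Keap1 hands it to a ubiquitin ligase. When oxidants or electrophiles modify Keap1, Nrf2 escapes, pairs with a small Maf protein and binds the antioxidant response element (ARE) in front of genes for glutathione synthesis, thioredoxin recycling, quinone reduction and haem breakdown. This control acts mainly on the protein, so the Nfe2l2 mRNA need not follow the activity of Nrf2.

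Of the 10 genes, 7 were lower in the PZH group and 0 were higher at the adjusted threshold, against 32.1% lower and 12.7% higher among all genes. The 7 were Gclc, Srxn1, Sqstm1, Txnrd1, Osgin1, Hmox1 and Gsr. The mRNAs of Nfe2l2, Nqo1 and Gclm did not pass. With a 2-fold change and an unadjusted p under 0.05, 6 of the 10 were lower, against 2.50% of all genes. In 6 of the 10 every PZH mouse lay below every control mouse, against 17.9% of all genes. The median difference of the 10 was -1.08, beside -0.11 for all genes tested. Dividing each mouse by a median-ratio scale factor moved the median of all genes to -0.00104 and the split of all genes to 19.8% higher and 19.3% lower, and the same 7 genes stayed lower. In whole liver tissue a smaller number of expressing cells and less RNA per cell cannot be told apart.

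**Figure D1:**
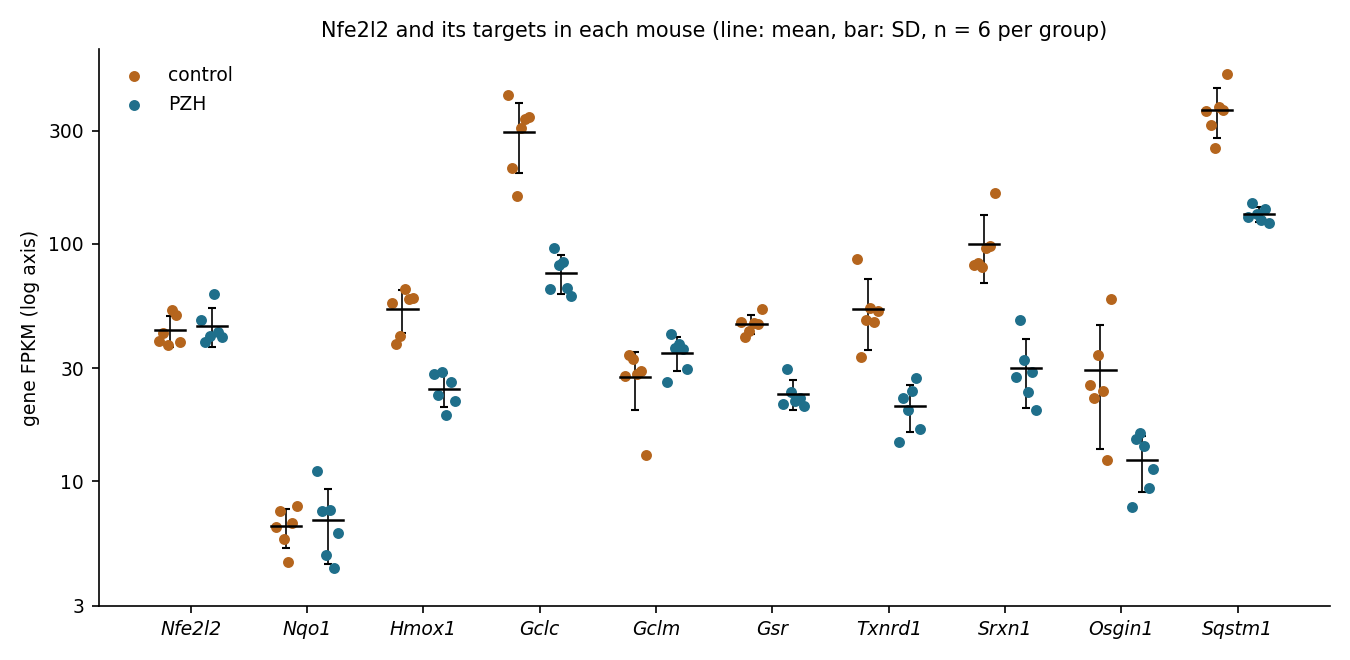
Gene FPKM on a log axis for Nfe2l2 and its 9 targets in each of the 6 control (orange) and 6 PZH (blue) mice, with the mean as a line and the SD as a bar. The groups are apart for Hmox1, Gclc, Gsr, Txnrd1, Srxn1 and Sqstm1, while Nfe2l2, Nqo1 and Gclm overlap and Osgin1 overlaps through 1 control mouse at 12.4 FPKM.

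**Figure D2:**
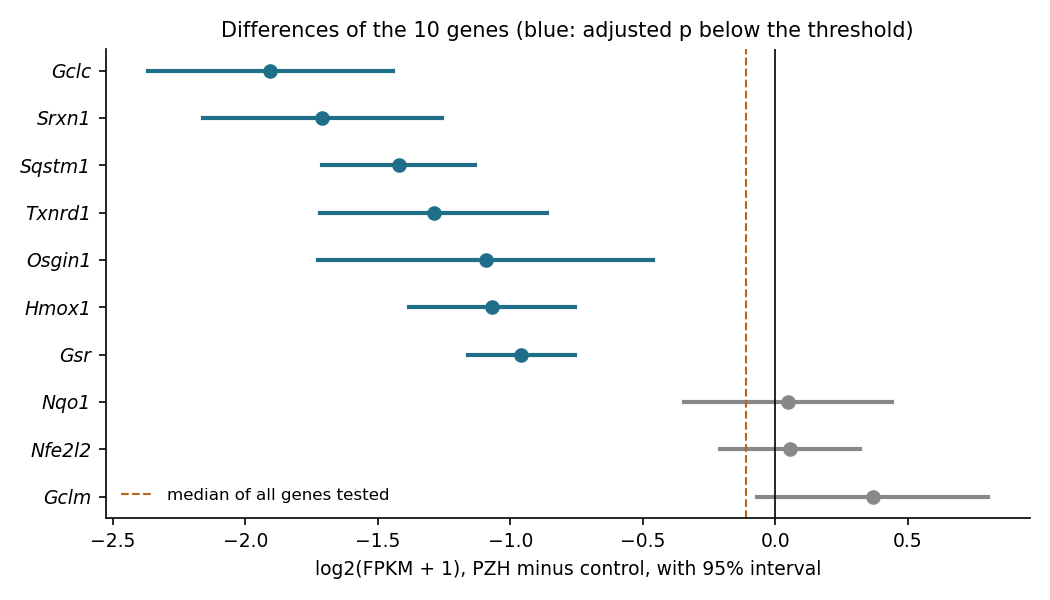
Difference between the groups on the log2(FPKM + 1) scale with its 95% interval for each of the 10 genes, in blue where the adjusted p was under 0.05 (limma), with the median of all genes as a dashed line at -0.11. The intervals run from Gclc at -1.90 to Gclm at 0.37, and those of Nqo1, Nfe2l2 and Gclm cross 0.

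Upstream windows of 250 bases before the annotated start were read from RefSeq (GRCm38.p6) for the members in its promoter table, 9 windows of 7 genes. No entry was matched for Hmox1, Gclc and Gsr. The windows of 2 genes that did not pass, Nfe2l2 and Gclm, are shown beside those of 2 that fell, Txnrd1 and Srxn1. They are written 5′ to 3′ in the direction of the gene, with capitals for matches to the ARE core TGACNNNGC or to the AP-1 site TGANTCA on either strand.
Nfe2l2 chr2:75704664-75704913 (-): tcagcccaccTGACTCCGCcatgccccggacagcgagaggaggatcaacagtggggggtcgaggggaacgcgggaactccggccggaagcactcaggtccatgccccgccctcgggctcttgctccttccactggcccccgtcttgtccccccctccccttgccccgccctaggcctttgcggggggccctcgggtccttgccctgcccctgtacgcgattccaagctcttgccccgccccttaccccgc
Gclm chr3:122245307-122245556 (+): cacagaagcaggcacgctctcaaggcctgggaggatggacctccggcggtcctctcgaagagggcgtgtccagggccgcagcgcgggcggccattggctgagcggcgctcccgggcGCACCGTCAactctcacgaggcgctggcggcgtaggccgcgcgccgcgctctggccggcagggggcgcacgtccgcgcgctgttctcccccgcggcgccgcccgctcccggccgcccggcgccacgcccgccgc
Txnrd1 chr10:82858956-82859205 (+): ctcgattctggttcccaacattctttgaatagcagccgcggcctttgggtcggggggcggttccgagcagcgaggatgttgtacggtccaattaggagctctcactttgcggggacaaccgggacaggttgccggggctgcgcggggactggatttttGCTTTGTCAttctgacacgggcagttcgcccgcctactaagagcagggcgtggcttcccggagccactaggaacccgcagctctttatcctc
Srxn1 chr2:152105274-152105523 (+): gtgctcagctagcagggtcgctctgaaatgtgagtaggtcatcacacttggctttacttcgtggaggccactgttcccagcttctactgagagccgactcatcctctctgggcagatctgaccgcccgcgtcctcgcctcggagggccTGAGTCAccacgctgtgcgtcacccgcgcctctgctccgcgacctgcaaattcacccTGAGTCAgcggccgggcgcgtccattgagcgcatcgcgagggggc
The ARE core lay 240 bases before the start of Nfe2l2 and, on the opposite strand, 134 bases before that of Gclm. Txnrd1 had 3 windows, and the printed one held the core 92 bases before its start, also on the opposite strand. The other Txnrd1 windows did not hold it, including the one that covers the start of its most abundant transcript, Txnrd1-206 (chr10:82860091-82860340). The core was also absent as these letters from the windows of Srxn1, Nqo1, Osgin1 and Sqstm1. The search did not allow G in place of the C after TGA. Of the 32851 mouse windows of this length 10.2% hold the core TGACNNNGC. The Srxn1 window held the AP-1 letters at 102 and 45 bases before the start, and that of Osgin1 at 97 bases, against 6.75% of all windows. None of these matches overlapped a match of the other motif as searched. The Srxn1 letters at 45 bases are followed by gc, however, and so read TGAGTCAGC. Those of Osgin1 read TGAGTCAGC on the opposite strand. Both would match the core if G were allowed in place of the C after TGA, and would then overlap the AP-1 letters. How often windows hold that form was not tested. A match describes letters only, and an element farther away would not be seen in these windows.

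The regulator, Nfe2l2 (ENSMUSG00000015839, chr2:75675513-75704641), did not pass, and its levels in the groups lay within the spread between mice. Its gene FPKM was 38.5, 41.8 and 61.4 (lowest, median, highest) in the PZH mice and 37.5, 40.5 and 52.8 in the control mice. The ranges overlapped, although PZH 4 lay above every control mouse. The difference was 0.06 (SE 0.12, 95% interval -0.21 to 0.32, limma adjusted p = 0.741), and the exact permutation test over all labellings of the mice gave p = 0.688 (two-sided). PZH 4 was the highest mouse at 61.4 FPKM, and without it the difference was -0.03.

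Nqo1, a flavoprotein that reduces quinones with NADPH or NADH and a common readout of Nrf2 activity, did not pass either. Its gene (ENSMUSG00000003849, chr8:107388225-107403206) was listed at 4.34, 6.79 and 11.05 FPKM in the PZH mice and at 4.58, 6.55 and 7.90 FPKM in the control mice. The highest and the lowest of the 12 values were both in the PZH group, PZH 1 and PZH 5. The difference was 0.05 (SE 0.18, limma adjusted p = 0.859), and its 95% interval of -0.35 to 0.44 leaves out a 2-fold change in either direction on this scale. The sign turned when PZH 1 was left out (-0.09) and when control 4 was left out (-0.03).

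Hmox1, heme oxygenase 1, which opens the haem ring to biliverdin, carbon monoxide and iron, was about 2-fold lower with PZH. Its gene (ENSMUSG00000005413, chr8:75093621-75100589) was at 19.0, 24.6 and 28.9 FPKM in the PZH mice and at 38.0, 57.5 and 64.8 FPKM in the control mice. Every PZH mouse was below every control mouse. The difference was -1.07 (SE 0.14, 95% interval -1.38 to -0.76, limma adjusted p = 0.000111), with means of 24.6 ± 3.93 (SD, n = 6) and 53.0 ± 10.8 FPKM (SD, n = 6). Hmox1 is made by liver macrophages as well as by hepatocytes, and the values of macrophage markers are given with the other marker lists.

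The genes of glutathione metabolism went separate ways. Gclc, the catalytic subunit of glutamate-cysteine ligase, which makes the first and limiting step of glutathione synthesis, had the largest difference of the 10. Gclc (ENSMUSG00000032350, chr9:77754535-77794485) was at 60.6, 73.4 and 96.6 FPKM in the PZH mice and at 159, 321 and 423 FPKM in the control mice. The highest PZH mouse, PZH 2, remained below the lowest control mouse, control 3. The mean was 3.92-fold lower, and the difference was -1.90 (SE 0.21, 95% interval -2.37 to -1.44, limma adjusted p = 3.62e-05).

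Gclm, the modifier subunit that lowers the feedback inhibition of the same enzyme, did not fall with it. Gclm (ENSMUSG00000028124, chr3:122245557-122270732) was at 26.3, 36.3 and 42.0 FPKM in the PZH mice and at 13.0, 28.7 and 34.1 FPKM in the control mice. The groups overlapped, with control 6 far below the other control mice, which lay between 27.9 and 34.1 FPKM. The difference was 0.37 (SE 0.20, 95% interval -0.07 to 0.80, limma adjusted p = 0.158) and fell to 0.17 without control 6. With a median-ratio scale factor it was 0.55 and passed, at a limma adjusted p of 0.0434.

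The ratio of the FPKM of Gclc to that of Gclm separated the groups. In the PZH mice it was 2.45, 2.30, 2.23, 2.22, 1.81 and 2.03 (PZH 1 to 6). In the control mice it was 15.1, 6.10, 4.84, 10.9, 11.5 and 26.4 (control 1 to 6). The PZH values were close to each other, and the lowest control value lay above all of them. The log2 ratio differed by -2.30 (two-sided exact permutation test, p = 0.0022, the lowest value that relabelling 12 mice can yield). Leaving out any 1 mouse gave -2.53 to -2.04, and the most abundant transcript of each gene alone gave -2.40. The ratio is of mRNA levels per length and says nothing of the subunits as proteins.

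**Figure D3:**
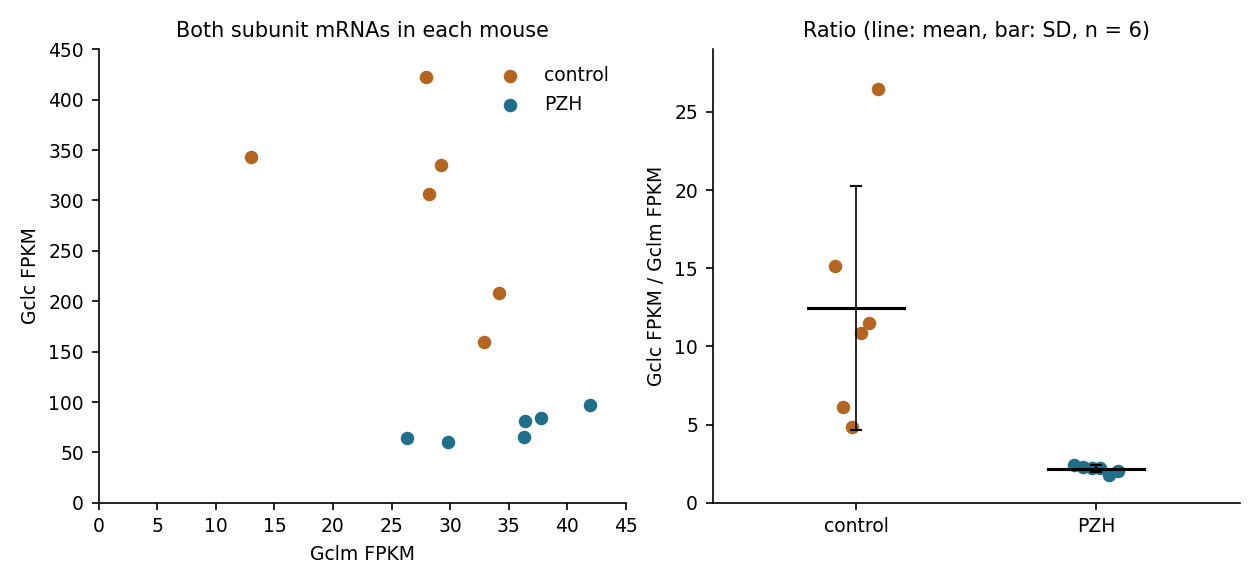
Left, Gclc against Gclm FPKM in each mouse on linear axes; right, the ratio of the 2 in each mouse with its mean as a line and SD as a bar (n = 6 per group). The PZH mice sit at Gclc values of 60.6 to 96.6 FPKM with ratios of 1.81 to 2.45, and the control mice at ratios of 4.84 to 26.4.

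Gsr, glutathione reductase, which returns oxidised glutathione to its reduced form, was lower in all PZH mice. Gsr (ENSMUSG00000031584, chr8:33652523-33698163) was at 20.7, 22.1 and 29.9 FPKM in the PZH mice and at 40.4, 46.2 and 53.2 FPKM in the control mice. It varied little inside each group, with an SD of 3.39 and of 4.32 FPKM. The difference of -0.96 (SE 0.09, 95% interval -1.16 to -0.76, limma adjusted p = 1.74e-05) missed the 2-fold limit on this scale.

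Both members of the thioredoxin system fell. Txnrd1, the cytosolic thioredoxin reductase, a selenoenzyme (ENSMUSG00000020250, chr10:82833951-82897712), was at 14.7, 21.3 and 27.3 FPKM in the PZH mice and at 33.5, 50.1 and 86.2 FPKM in the control mice. The control mice were spread more widely, with control 1 the highest, and no value of one group entered the range of the other. The difference was -1.29 (SE 0.20, 95% interval -1.72 to -0.86, limma adjusted p = 0.000246). Srxn1, sulfiredoxin, repairs peroxiredoxins whose cysteine has been over-oxidised (ENSMUSG00000032802, chr2:152105516-152111376). Its level was 20.1, 28.2 and 48.0 FPKM in the PZH mice and 80.1, 89.8 and 164 FPKM in the control mice. Control 6 was highest by a wide gap, and the other control mice still lay above all PZH mice. The mean was 3.33-fold lower with a difference of -1.71 (SE 0.21, 95% interval -2.16 to -1.26, limma adjusted p = 5.80e-05), or -1.56 without control 6.

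Osgin1, an oxidative stress induced growth inhibitor, fell with the widest interval among the genes that passed. Osgin1 (ENSMUSG00000074063, chr8:119434124-119446256) was at 7.79, 12.7 and 16.0 FPKM in the PZH mice and at 12.4, 24.8 and 58.7 FPKM in the control mice. Control 5, at 12.4 FPKM, lay inside the PZH range, and the other control mice lay above it. The difference was -1.09 (SE 0.29, 95% interval -1.73 to -0.46, limma adjusted p = 0.00873). The exact permutation test gave p = 0.00866 (two-sided), and leaving out 1 mouse gave -1.30 to -0.87.

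Sqstm1, or p62, is an autophagy receptor that also binds Keap1, and its gene is itself a target of Nrf2. Sqstm1 (ENSMUSG00000015837, chr11:50199366-50210827) had the highest level of the 10 genes in both groups, at 122, 132 and 149 FPKM in the PZH mice and at 255, 364 and 520 FPKM in the control mice. The SD was 9.67 FPKM in the PZH mice and 87.8 FPKM in the control mice. The mean was 2.75-fold lower, and the difference was -1.42 (SE 0.13, 95% interval -1.71 to -1.13, limma adjusted p = 1.56e-05). For each of the 6 genes whose groups did not overlap, the two-sided exact permutation test reached p = 0.0022, the lowest value possible with 6 mice a group.

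The order of the levels per length changed between the groups. By mean FPKM the control order was Sqstm1, Gclc, Srxn1, Txnrd1, Hmox1, Gsr, Nfe2l2, Osgin1, Gclm and Nqo1. In the PZH group it was Sqstm1, Gclc, Nfe2l2, Gclm, Srxn1, Hmox1, Gsr, Txnrd1, Osgin1 and Nqo1. Nfe2l2 thus stood at rank 7 in the control and at rank 3 in the PZH group, with nearly the same level. Neighbours in these orders mostly overlapped across mice, and only Gclm and Nqo1 in the control group and Sqstm1 and Gclc in the PZH group had ranges that did not meet. With each mouse left out in turn 7 of the 10 genes remained lower at the adjusted threshold. Control 6 was the highest control in 5 of the 10 genes (Nqo1, Gsr, Srxn1, Osgin1 and Sqstm1) and the lowest in Gclm.

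By transcript, 18 transcripts of the 10 genes were listed, 15 of them with a mean of at least 1 FPKM, and 6 of the genes had a single one. At the adjusted threshold 7 of the 18 were lower and 0 were higher, against 14.0% lower and 5.73% higher among all protein-coding transcripts. Both transcripts of Sqstm1 fell. Sqstm1-202 was at 110 ± 7.39 FPKM (SD, n = 6) with PZH and 292 ± 75.4 FPKM (SD, n = 6) in the control, a difference of -1.37 (limma adjusted p = 0.000155). Sqstm1-201 was at 23.8 ± 8.69 and 74.5 ± 18.6 FPKM, a difference of -1.65 (limma adjusted p = 0.000623).

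Txnrd1 had 4 listed transcripts, of which Txnrd1-206 (start chr10, 82860301) made up most of the FPKM. It was at 17.3 ± 5.63 FPKM (SD, n = 6) with PZH and 42.8 ± 21.9 FPKM (SD, n = 6) in the control, a difference of -1.19 (limma adjusted p = 0.0165). Its share of the gene ranged from 73.3% to 94.0% among PZH mice, against 53.4% to 95.4% among controls. Txnrd1-208, which starts upstream at 82859207 just past the window printed above, was at 2.79 ± 1.07 and 7.97 ± 6.62 FPKM (difference -0.93, limma adjusted p = 0.207). Its share reached 35.2% in control 5, 29.4% in control 6 and 24.5% in control 2, the mice in which Txnrd1-206 had its lowest shares. Txnrd1-201 (difference -0.77, limma adjusted p = 0.0691) did not pass, although it did without control 1 (adjusted p = 0.0473) or control 3 (0.0264), and Txnrd1-205 had a mean below 1 FPKM. A lncRNA, Gm38560, is annotated antisense across the first part of Txnrd1, at 82845733 to 82859008. Of the listed Txnrd1 transcripts only Txnrd1-205 spans that part, as the others start beyond it. Fragments of Gm38560 and of Txnrd1-205 cannot be told apart where they overlap if strand was not used in quantification.

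**Figure D4:**
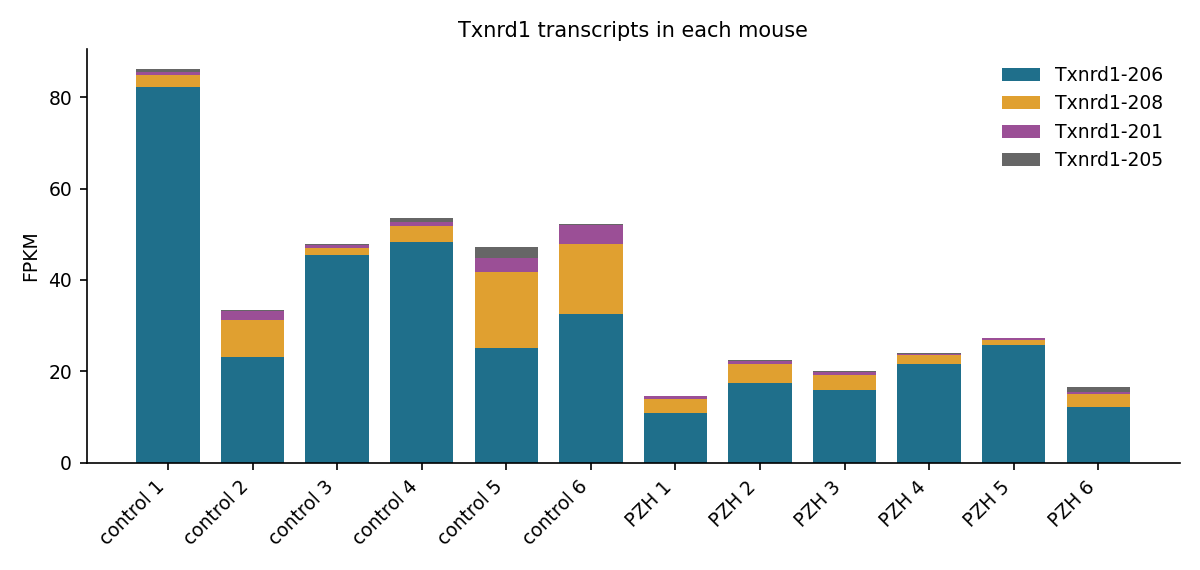
FPKM of the 4 listed Txnrd1 transcripts stacked for each of the 12 mice, so that a bar's height is the gene FPKM. Txnrd1-206 is the largest part in every mouse, and Txnrd1-208 adds 16.6 FPKM in control 5 and 15.4 FPKM in control 6.

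None of the transcripts of Osgin1 passed in the fit over all transcripts, although the gene did. In the gene fit with the most abundant transcript standing for its gene, Osgin1 passed through Osgin1-206 (limma adjusted p = 0.0399). Osgin1-206 was at 10.5 ± 4.09 FPKM (SD, n = 6) with PZH and 24.2 ± 15.7 FPKM (SD, n = 6) in the control (difference -1.04, limma adjusted p = 0.0667, or 0.0458 without control 5), and Osgin1-201 differed by -1.01 (limma adjusted p = 0.245). Both have 6 exons and the same end, and how the fragments were divided between them can move either value. For Gclm, Gclm-201 differed by 0.46 (limma adjusted p = 0.307) and Gclm-204 by 0.00, and in control 6 Gclm-204 took 36.4% of the gene. The transcripts of the genes with a single one, from Nfe2l2-201 and Nqo1-201 to Hmox1-201, Gclc-201, Gsr-201 and Srxn1-201, have the gene's values.

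Within a group, no target followed Nfe2l2 from mouse to mouse at the threshold. The 18 relations, 9 in each group of 6 mice, had Pearson's r from -0.67 to 0.50 and Spearman's rho from -0.77 to 0.43. The lowest exact permutation p was 0.158 for Pearson's r, 0.921 after adjustment over the 18, and 0.974 was the lowest adjusted p for rho. The strongest was that of Osgin1 in the control mice (r = -0.67, rho = -0.77), and r was -0.54 without the 2 mice farthest from the median of Nfe2l2. On the same step 6 of the 18 relations changed sign, among them those of Nqo1 (0.39 to -0.95 in PZH mice, -0.50 to 0.60 in control mice) and Hmox1 (-0.48 to 0.47 and 0.50 to -0.42), so these rest on the mice left out.

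The genes whose levels moved most like a member from mouse to mouse were sought among 10948 genes over the 12 mice, with each group set to a mean of 0, as a description with no test. Nfe2l2 was matched best by Wbp1 (r = 0.947), Bloc1s1 (0.909) and Ugt1a2 (0.892). For Nqo1 they were Dld (0.893), Txndc12 (0.886) and Tmem18 (0.883), none of which passed between the groups. For Hmox1 they were Mtm1 (0.926), Ms4a6d (0.905) and Ccr1 (0.900), and of these Ms4a6d and Ccr1 were lower with PZH (-1.04 and -1.001). None of these 9 genes is a target chosen here, and all 12 values of a pair share libraries and scaling.

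Around the 10 genes, 104 of 107 genes of 9 pathway lists were measured. In the PZH group 25 of the 104 were higher and 30 were lower, with a median difference of -0.04, beside 12.7% higher, 32.1% lower and a median of -0.11 among all genes. With the median-ratio scale factor 34 were higher and 19 were lower. The direction thus varied by list, and Ggt1, Gpx2 and Aldh3a1 were not analysed here.

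**Figure D5:**
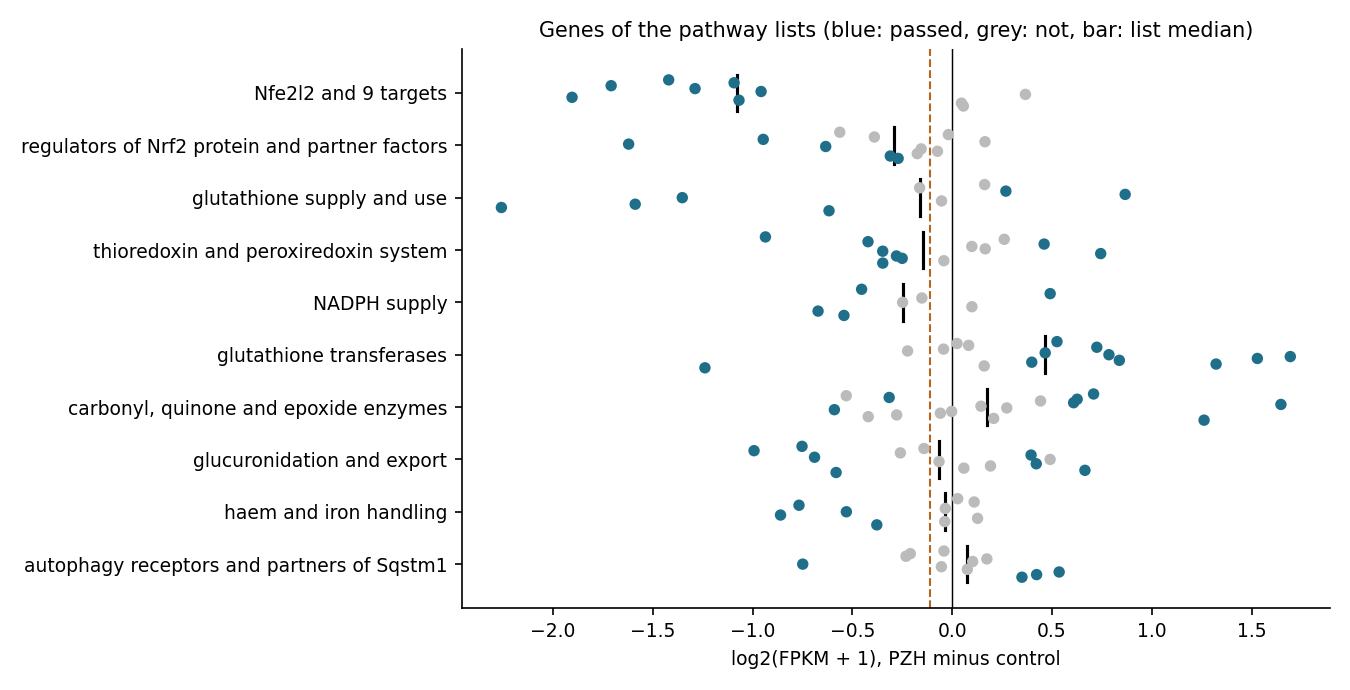
Difference on the log2(FPKM + 1) scale of each gene of the 10 members and of the 9 pathway lists, blue where the adjusted p was under 0.05 and grey where not, with the list median as a bar and the median of all genes as a dashed line at -0.11. The median is -1.08 for Nfe2l2 and its targets and lies between -0.29 and 0.47 for the 9 lists.

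Among the 12 regulators and partners of Nrf2, 5 were lower and 0 were higher (median -0.29), and with the median-ratio factor 3 were lower and 1 was higher. Of the small Maf genes, whose proteins pair with Nrf2 on DNA, 2 fell and the most abundant did not. Maff was at 1.55 ± 0.519 FPKM (SD, n = 6) with PZH and 7.23 ± 3.13 FPKM (SD, n = 6) in the control (-1.62, limma adjusted p = 0.000217), and Mafk at 5.04 ± 0.968 and 10.7 ± 2.20 FPKM (-0.95, limma adjusted p = 0.000227). Mafg was at 16.5 ± 2.93 and 14.5 ± 2.02 FPKM (0.16, limma adjusted p = 0.306), and it was the 1 that passed as higher with the median-ratio factor (0.34, adjusted p = 0.0265). Bach2, a repressor that competes for the same partners, fell by 0.63 at a low level, 0.906 ± 0.217 against 1.98 ± 0.519 FPKM. Keap1 was at 7.89 ± 1.25 and 9.66 ± 0.781 FPKM (-0.27, limma adjusted p = 0.0362), and the call was lost with the median-ratio factor (-0.10, adjusted p = 0.341). Bach1, which holds Hmox1 down, differed by -0.16 (limma adjusted p = 0.432), with the sign turned under the median-ratio factor (0.02).

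Of 9 genes of glutathione supply and use 4 were lower and 2 were higher. The falls included both chains of the cystine importer that supplies the cysteine of glutathione. Slc7a11, its light chain, was at 2.37 ± 1.38 FPKM (SD, n = 6) with PZH and at 14.6 ± 4.62 FPKM (SD, n = 6) in the control, a difference of -2.26 (95% interval -2.82 to -1.70, limma adjusted p = 3.90e-05). Slc3a2, its heavy chain, was at 24.6 ± 4.78 and 75.8 ± 13.5 FPKM (-1.59, limma adjusted p = 1.16e-05). In both genes all PZH mice lay below all control mice. Chac1, which degrades glutathione, fell by 1.35, whereas its relative Chac2 rose by 0.87 and the peroxidase Gpx1 by 0.27.

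In the thioredoxin and peroxiredoxin list of 12 genes 6 were lower and 2 were higher, a balance that turned to 1 lower and 3 higher with the median-ratio factor. Sesn2, a stress-induced sestrin and the 1 gene lower in both, fell by 0.94 (limma adjusted p = 4.84e-05). Smaller falls were those of Prdx5 (-0.42) and Prdx1 (-0.35), 2 peroxidases that reduce hydrogen peroxide, and both calls were lost with that factor (adjusted p = 0.198 and 0.371), as were those of Txn1, Txnrd2 and Txnrd3. Txnip, which binds and inhibits thioredoxin, rose by 0.74, and Prdx4, the peroxiredoxin of the secretory pathway, by 0.46. Of 7 genes of NADPH supply 3 were lower and 1 was higher, or 2 and 2 with the median-ratio factor. The pentose phosphate enzymes Pgd (-0.67) and G6pdx (-0.54) fell, H6pd (-0.45) lost its call with the median-ratio factor (adjusted p = 0.125), and Idh1 rose by 0.49.

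The glutathione transferases, which couple glutathione to electrophiles, went mostly the other way, with 9 of 15 higher and 1 lower (median 0.47). Gstm3 rose from 93.0 to 283 FPKM (1.69), Gstm2 from 39.5 to 115 FPKM (1.53) and Gsta3 from 212 to 540 FPKM (1.32). Gsta1 was the 1 that fell, from 111 ± 20.9 FPKM (SD, n = 6) to 46.7 ± 9.46 FPKM (SD, n = 6), a difference of -1.24 (limma adjusted p = 5.21e-05). Several of these genes are near-identical copies that share fragments, so single values within the family are uncertain. Of 16 carbonyl, quinone and epoxide enzymes 5 were higher and 2 were lower, or 8 and 1 with the median-ratio factor. Akr1c14 rose by 1.65, Nqo2, the sister gene of Nqo1, by 1.26 (30.2 ± 5.56 against 11.95 ± 1.87 FPKM, limma adjusted p = 2.80e-05) and Adh7 by 0.71. Akr1b8 fell by 0.59 and Aox1 by 0.32, the latter not with the median-ratio factor (adjusted p = 0.232).

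Among 13 genes of glucuronidation and export 4 were lower and 3 were higher, or 3 and 3 with the median-ratio factor. The exporters Abcc4 (-0.99) and Abcc1 (-0.69) of the basolateral side and the metal transporter Slc39a14 (-0.75) fell, while Abcc2, the exporter into bile, rose by 0.40. Ugt1a1 rose by 0.67 and Ugt2b35 by 0.42, though the Ugt1a genes share their last exons and cannot be fully separated. Of 9 genes of haem and iron handling 4 were lower and 0 were higher, or 3 and 1 with the median-ratio factor. Fth1 (-0.86, from 944 to 520 FPKM) and Ftl1 (-0.53), the chains of the iron store ferritin, fell with Slc48a1 (-0.77), a haem transporter, and ferritin values may include fragments of pseudogenes. Of 11 autophagy receptors and partners of Sqstm1 3 were higher and 1 was lower, or 5 and 1 with the median-ratio factor. The receptors Calcoco1 (0.54), Optn (0.42) and Nbr1 (0.35) rose while Map1lc3a, whose protein coats autophagosomes, fell by 0.75.

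Some markers of liver cell types and some clock genes passed too, beside 12.7% higher and 32.1% lower among all genes. With the median-ratio factor the shares of all genes were 19.8% higher and 19.3% lower. The summed levels of macrophage, stellate cell, endothelial and lymphocyte markers overlapped between the groups. Hepatocyte markers (9 of 10 measured) summed to 43206 to 59715 FPKM with PZH and 26388 to 39901 FPKM in the control, most of it Alb. Without Alb the sums were 9846 to 13353 and 8373 to 10987 FPKM, which overlapped. Of these markers 4 were higher (Alb, Ttr, Cps1 and Tdo2), 2 were lower (Fgb at -1.17 and Hnf4a at -0.30) and 3 did not pass. With the median-ratio factor 5 were higher and 1 was lower, as Hnf4a lost its call (-0.11, limma adjusted p = 0.25). Macrophage markers summed to 507 to 756 and 516 to 663 FPKM, with 3 of 12 higher, among them Clec4f (0.60) and Vsig4 (0.57), and 3 lower, among them Marco (-2.21), or 6 and 1 with the median-ratio factor. Stellate cell markers summed to 130 to 221 and 111 to 180 FPKM (2 of 10 higher, 4 lower, or 4 and 4 with that factor). Endothelial markers summed to 82.6 to 106 and 93.6 to 108 FPKM (0 of 7 higher, 2 lower, or 1 and 1 with that factor). Cholangiocyte markers (4 of 5 measured) summed to 5.40 to 7.60 and 11.9 to 18.8 FPKM with Sox9 lower (-1.64) and the other 3 not passing, and Epcam at 0 in a control mouse. With that factor Epcam passed as higher (0.37, adjusted p = 0.0457). Lymphocyte markers summed to 4.78 to 8.31 and 4.27 to 7.18 FPKM with none of 7 passing, or 2 higher with that factor. Of 14 clock genes 8 were higher, led by Dbp (2.73), and 2 were lower, with sums of 113 to 163 and 70.2 to 104 FPKM. Their part in the differences of the 10 genes was not tested. The depth implied by the smallest FPKM steps was 26.8 to 42.8 M fragments per mouse and did not differ between the groups beyond the spread (two-sided exact permutation test, p = 0.548).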

How the data were processed

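Liver RNA of 12 mice was sequenced by the authors as ribosomal RNA depleted, strand-specific libraries. The authors trimmed reads with Trimmomatic, mapped them to GRCm38 with HISAT2 2.1.0 and assembled transcripts with StringTie 1.3.5 and Ensembl release 95. Whether strand was used in quantification is not given in the sources used here. The authors deposited 2 tables of FPKM, of 29883 protein-coding and of 1432 lncRNA transcripts, with values already divided by length and library size. Listed transcripts had a sum over the mice of at least 1 FPKM.

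Transcripts were assigned to genes with GENCODE M21 (7 were unmatched) and summed. Samples were grouped by their titles, and each sample is 1 mouse. Values were tested as log2(FPKM + 1), with no filter, in R 4.3.3 with limma 3.58.1, default variance moderation and Benjamini-Hochberg adjustment over all 14188 genes or all transcripts of a table. Single values were compared by two-sided exact permutation over all labellings of the mice, and correlations over 720 orders. Tables were handled in Python 3.11.15 (scipy 1.17.1, numpy 2.4.6, pandas 2.3.3), with plots from matplotlib 3.10.9, and the fit was tested on simulated data. Counts could not be recovered, so precision is the spread between mice.

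The members and lists were chosen with earlier results of these data known. Named were all members, the 3 largest rises and 3 largest falls that passed in each list, Keap1, Bach1 and Slc7a11, transcripts of mean FPKM of at least 1, and the 3 genes most like Nfe2l2, Nqo1 and Hmox1. Genes of the marker and clock lists were named after their values were seen, and 1 of them is not reported here. As alternatives, each mouse was left out, the mouse number was used as a block, values were divided by a median-ratio scale factor or set to an equal FPKM sum, genes under a mean of 1 FPKM were dropped, 0.1 replaced 1 as pseudocount, a mean-variance trend was added, and the most abundant transcript stood for its gene. Upstream windows come from RefSeq (GRCm38.p6).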

Additional observations from a re-analysis of the deposited data

Results flagged for a closer look

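In 40 groups of 6 mice, the 10 genes and their transcripts of mean FPKM of at least 1 among them, 4 had a single mouse whose gap to its nearest neighbour exceeded Dixon's 95% critical value, and all 4 were control 6. For genes and transcripts the gap was taken on the log2(FPKM + 1) scale. Chance alone gives such a gap in about 1 of 20 independent groups. The groups here are not independent, as a gene's level is the sum over its transcripts, and the 4 concern only Gclm and Srxn1. The Gclm level of control 6 was 13.0 FPKM against 27.9 to 34.1 FPKM in the other control mice. Its Srxn1 level was 164 FPKM against 80.1 to 98.0 FPKM. Of the Gclm transcripts, Gclm-201 was at 8.24 FPKM against 26.4 to 32.8 FPKM, and Gclm-204 was at 4.72 FPKM against 0.805 to 1.37 FPKM.

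Among the lncRNA transcripts, a second table that the comparisons of the 10 genes do not use, 1 lay within 10 kb of a member. Gm38560 (chr10:82845733-82859008) runs antisense through the first part of Txnrd1, and its 5′ end lies inside the Txnrd1 window printed in the report. It was at 0.1797 ± 0.0722 FPKM (SD, n = 6) with PZH and 0.0460 ± 0.0331 FPKM (SD, n = 6) in the control. All PZH mice were higher than all control mice, with a difference of 0.17 on the log2(FPKM + 1) scale (SE 0.05, limma adjusted p = 0.0233), the opposite direction to Txnrd1. The level is low, and it is not given whether strand was used in quantification. If it was not, fragments of Gm38560 and of Txnrd1-205 where they overlap cannot be told apart. The other listed Txnrd1 transcripts start beyond Gm38560.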

How the results depend on the processing

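Apart from leaving out mice, 71 of 72 differences kept their direction and their side of the threshold, and 50 of 54 counts of calls stayed within 1.5 times the reported count (25 of them equal to it). The other 5 values arose under the median-ratio scale factor, where Gclm passed at 0.55, so that 1 of the 10 genes was higher, and where 2807 of all genes were higher, 2739 were lower and 19 of the pathway list genes were lower. The factors were 0.875 to 1.005 in PZH mice and 1.03 to 1.11 in control mice. Among the counts inside that limit, 9 member transcripts were lower with a mean of at least 1 FPKM, as Txnrd1-201 and Osgin1-206 then passed (adjusted p = 0.0476 and 0.0455), and 3772 of all genes were lower with the most abundant transcript alone. With 1 mouse left out 129 of 132 differences held and all 96 counts stayed inside the limit. The other 3 were sign changes of genes that did not pass, with a range of -0.034 to 0.114 for Nfe2l2 and -0.0859 to 0.149 for Nqo1. The count of members lower was 7 in each of these settings. Mice of the same number did not deviate together (correlations of -0.0784 to 0.0929 over 6 pairs, and 0 mice closest to their own number). The values thus show no pairing by number, but how the numbers were given is not stated in the sources used here. With the number as a replicate block 7 members were lower, 1694 of all genes were higher and 4288 lower, and 6 in place of 7 member transcripts were lower, as Txnrd1-206 did not pass (adjusted p = 0.0663). Depth in counts is unknown, so no counting interval is given.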

Other observations

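Some genes of the lists fell outside the rule for naming and are given here as values chosen after they were seen. Gss, the ligase that completes glutathione, was at 31.5 ± 3.57 FPKM (SD, n = 6) with PZH and 48.8 ± 5.57 FPKM (SD, n = 6) in the control, a difference of -0.62 with no overlap (limma adjusted p = 0.000201). Cul3, the ubiquitin ligase scaffold to which Keap1 carries Nrf2, differed by -0.31 (limma adjusted p = 0.00415), and this call was lost with the median-ratio factor (adjusted p = 0.125). Gstm1, the most abundant transferase that rose, went from 561 ± 161 to 973 ± 105 FPKM (0.84, limma adjusted p = 0.00149). Gstp1, close to it in level in the PZH group only, was at 950 ± 129 FPKM with PZH and 1103 ± 91.7 FPKM in the control. It did not pass (-0.22, limma adjusted p = 0.0752). Ptgr1, which reduces unsaturated aldehydes and ketones, rose by 0.61 from below 1 FPKM.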
